A study of Homo sapiens with 12 samples.

Results

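The 39 genes described here encode proteins of homologous recombination, of the Fanconi pathway and of the replication checkpoint. They were chosen as a list of gene symbols with known roles in these processes, with earlier results of these data known. The shares of all tested genes given below therefore describe the list and are not an independent test of it. Each symbol matched 1 of the 63568 gene identifiers of the count table. All 39 passed the filter on low counts, which left 25249 genes for testing, and their counts ran from 93 to 10114 in a sample.

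RNA was sequenced in 12 samples of MDA-MB-231, an established human triple negative breast cancer line, grown in droplets of Matrigel, a gel of basement membrane proteins. All samples, controls included, carry a wild type genotype by their labels and a GFP-tagged histone that marks the nucleus, and all come from 1 line. There were 6 conditions with 2 biological replicates each. C1 was untreated and taken on day 2, C2 was untreated and taken on day 4, and the other conditions received Paclitaxel, a drug that stabilises microtubules, at 0.0005, 0.005, 0.05 or 0.5 μM and were taken on day 4. The labels place the drug on day 2, so treated cells were exposed from day 2 to day 4. A vehicle for the untreated samples is not given in the sources used here.

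Homologous recombination repairs a broken chromosome by copying the intact sister chromatid. Nucleases first trim the broken end, BRCA1 with BARD1 promotes this step, PALB2 bridges BRCA1 to BRCA2, and BRCA2 prepares the exposed strand for pairing with the sister. The Fanconi core complex attaches ubiquitin to FANCD2 and FANCI at crosslinked DNA, and the ATR and CHEK1 kinases hold back the cell cycle when replication forks stall. BRCA1 and BRCA2 are known as breast cancer susceptibility genes, and many genes of these pathways are transcribed mainly in cells that are preparing for or passing through S phase.

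The total count of a sample ran from 38380629 (C1 replicate 2) to 79169121 (C1 replicate 1). Replicates of C1 differed more than those of the other conditions, with a median absolute difference of the 39 genes of 0.28 on the log2 CPM scale, against 0.07 to 0.13 in the other 5 conditions. CPM is the count of a gene relative to the library size of its sample. Among receptor genes of breast epithelium, ESR1 read at most 0.460 CPM and PGR at most 0.0867 CPM, whereas ERBB2 read 26.6 to 52.4 CPM. Of 9 mesenchymal markers, VIM read 797 to 1366 CPM and SPARC 16.15 to 38.4 CPM. Of 7 luminal epithelial markers, KRT8, KRT18 and KRT19 read 315 to 505, 110 to 188 and 144 to 277.5 CPM. CDH1, EPCAM, GATA3 and FOXA1 read at most 0.201, 6.77, 4.44 and 9.29 CPM. The summed level of 8 fibroblast markers was 9.22 to 17.0 CPM in untreated and 13.1 to 21.7 CPM in treated samples, with DCN, COL1A2 and FAP at or below 0.173 CPM throughout and COL1A1 and PDGFRB at 3.61 to 9.85 CPM. Of the 6 fibroblast markers that passed the filter, COL3A1, PDGFRA and FAP rose in treated against untreated samples by edgeR (13.1% of all tested genes). At the doses in rising order 2, 2, 3 and 3 rose (1.87%, 2.5%, 5.09% and 4.36% of all tested genes). The median log2 fold change of the 6 in treated against untreated samples was 1.57. A marker as low as FAP, at 0 to 0.173 CPM, can pass the filter through the conditions where it is high. Its rise and this median are therefore partly set by the filter. The sum of 4 endothelial markers was 0.507 to 1.57 CPM and 2.04 to 3.03 CPM, and that of 6 immune markers 0.537 to 0.871 CPM and 1.31 to 1.80 CPM, in untreated and treated samples respectively, with 1 of 3 tested endothelial and 2 of 3 tested immune markers called higher. The same limit of the filter holds for the low endothelial and immune markers. The part of these markers in the results was not tested.

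Promoter sequences of RefSeq, on build GRCh38.p14, were matched by symbol to 34 of the 39 genes, all but RAD54B, FANCI, NBN, DNA2 and WRN. Each window of 300 bases runs from 250 bases before to 50 after the transcription start. The windows were searched on both strands for 4 letter strings bound by E2F factors (TTTGGCG with its variants TTTCGCG and also TTTGCCG and finally TTTCCCG) and for the cell cycle homology region, CHR (TTTGAA or, in a variant, TTCGAA), and no match of the former overlapped a match of the latter in the windows of these genes. E2F strings were held by 10 of the 34 windows (29.4%), against 8.69% of 27305 RefSeq promoters, 11.9% of 13291 promoters of tested genes and 61.1% of 36 promoters of S phase genes. CHR strings were held by 4 of 34 (11.8%), against 16.6% of all promoters and 12.3% of those of tested genes. All 4 CHR windows belong to genes that fell at 1 dose or more (BRIP1, FANCC, ATM and POLQ), and E2F strings were held by 5 of 15 such genes and by 5 of the 19 genes without a call at a dose.

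The windows of BRIP1, CLSPN, FANCD2 and EXO1 are shown because, among genes with either string, these had the smallest p-values in treated against untreated samples. They are printed 5′ to 3′ from 250 bases before to 30 after the start, with E2F or CHR strings in capitals. BRIP1 lies at chr17:61863499-61863778 on the minus strand, CLSPN at chr1:35769949-35770228 on the minus strand, FANCD2 at chr3:10026187-10026466 on the plus strand and EXO1 at chr1:241847954-241848233 on the plus strand.
BRIP1: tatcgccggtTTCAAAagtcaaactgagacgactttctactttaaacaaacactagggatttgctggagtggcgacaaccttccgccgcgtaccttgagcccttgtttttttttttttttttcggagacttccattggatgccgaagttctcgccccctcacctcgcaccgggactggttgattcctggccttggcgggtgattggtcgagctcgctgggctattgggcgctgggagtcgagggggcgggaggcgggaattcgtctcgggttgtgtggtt
CLSPN: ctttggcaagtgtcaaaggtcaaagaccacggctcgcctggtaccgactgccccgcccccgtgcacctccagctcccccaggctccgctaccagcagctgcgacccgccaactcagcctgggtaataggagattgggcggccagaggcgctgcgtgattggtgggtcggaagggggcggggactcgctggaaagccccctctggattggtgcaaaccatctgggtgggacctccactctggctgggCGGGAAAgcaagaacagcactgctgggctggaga
FANCD2: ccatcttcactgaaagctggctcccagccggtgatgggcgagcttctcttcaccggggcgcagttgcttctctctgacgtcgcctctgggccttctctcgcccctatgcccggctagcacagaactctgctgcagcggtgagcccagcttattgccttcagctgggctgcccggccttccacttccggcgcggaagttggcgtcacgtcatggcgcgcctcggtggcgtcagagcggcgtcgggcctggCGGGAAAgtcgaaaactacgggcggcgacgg
EXO1: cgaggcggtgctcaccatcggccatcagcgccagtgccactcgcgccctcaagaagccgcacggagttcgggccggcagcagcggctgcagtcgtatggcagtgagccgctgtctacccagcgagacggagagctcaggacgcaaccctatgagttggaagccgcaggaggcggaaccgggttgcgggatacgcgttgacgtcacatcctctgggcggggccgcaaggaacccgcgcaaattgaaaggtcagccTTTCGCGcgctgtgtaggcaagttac
The E2F string of CLSPN begins at -4, that of FANCD2 at -1 and that of EXO1 at 4, counted from the start base as 0, so that all 3 lie beside the start. The CHR string of BRIP1 begins at -240, near the far end of its window. A match of letters describes the sequence only and does not show that a factor binds there.

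To ask how Paclitaxel changed these genes, each dose was compared with C2, the untreated samples of the same day. In order of rising dose, 39, 39, 37 and 36 of the 39 genes had a negative log2 fold change, where 51.1%, 46.8%, 51% and 47% of all tested genes did. At 0.0005 μM, 6 of the 39 genes fell at an adjusted p under 0.05, against 0.479% of all tested genes that were called lower. The next doses in rising order gave 8 genes that fell (0.776% of all genes), 17 (3.23%) and 5 (1.96%). At no dose was any of the 39 called higher by edgeR or by DESeq2, and edgeR gave 0 higher ones at an unadjusted p under 0.05, where 1.87%, 2.5%, 5.09% and 4.36% of all tested genes were called higher. The median log2 fold change of the 39 was -0.36, -0.38, -0.52 and -0.33 in order of rising dose. The median of all tested genes was -0.01, 0.04, -0.01 and 0.04, and that of genes with a mean of at least 1 CPM was -0.04, -0.08, -0.09 and -0.07.

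The counts at single doses depended on single samples, also on those of C1, which is in none of the dose comparisons. Each condition has 2 samples, and the cause of this dependence was not tested. Without C2 replicate 1 the counts were 0, 0, 3 and 0 in order of rising dose, where 0.0372%, 0.0186%, 0.208% and 0.0856% of all genes were called lower. Without C1 replicate 1 they were 19, 21, 25 and 19, where 4.29%, 6.4%, 9.16% and 9.8% of all genes were, so that the shares of all genes moved in the same direction as the counts of the 39. The 4 dose comparisons share the C2 samples, so that their counts are not independent of each other.

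The study's methods name a comparison of treatment with non-treatment, and here a separate fit set the 8 treated against the 4 untreated samples. Because 2 of the untreated samples, those of C1, are of day 2, the comparison holds the difference between days as well as that between treated and untreated samples. In it 31 of the 39 genes fell, against 11.3% of all tested genes called lower, and 0 rose (13.1% of all genes by edgeR), also at an unadjusted p under 0.05 or by DESeq2. The log2 fold changes ran from -1.08 (CLSPN) to -0.09 (FANCF), all negative, as for 50.2% of all tested genes. Of the 31 genes, 17 were also called at 1 dose or more against C2. The median was -0.54, against -0.0019 for all tested genes and -0.11 for genes of at least 1 CPM. PALB2, FANCE, FANCF, RAD50, WRN, ATRIP, MUS81 and EME1 were the 8 genes without a call by edgeR in any comparison, of which DESeq2 called PALB2, WRN and EME1 lower in treated against untreated samples (34 of the 39 in all, against 13.9% of all genes called lower by DESeq2). With the C2 samples alone as the control, 18 of the 39 were called lower, as were 4.1% of all genes. In 23 of the 39 genes every treated sample lay below every untreated sample, a pattern found in 5.77% of all tested genes, and in 0 of the 39 every treated sample lay above (7.39% of all genes). The same 23 genes are those in which every treated sample lay below both C2 samples, a pattern of 11.3% of all tested genes. In these bulk samples, fewer cells that express a gene and less RNA per cell cannot be told apart.

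**Figure D1:**
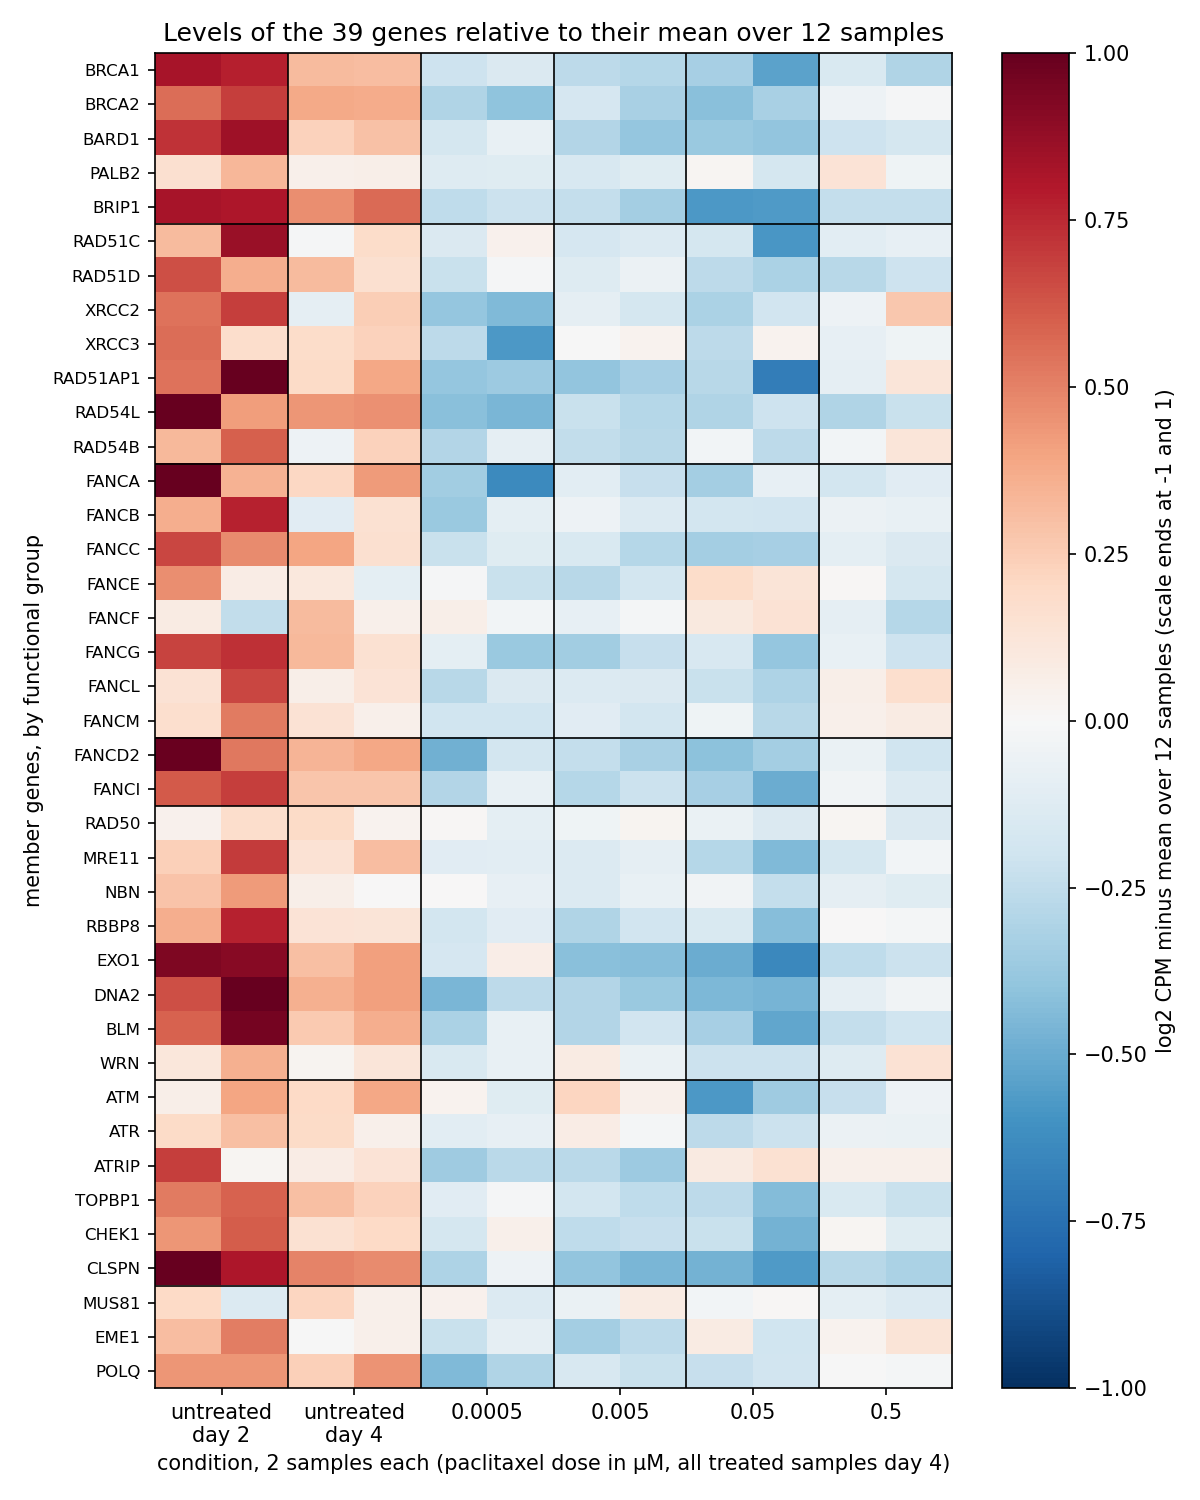
Rows are the 39 genes in 7 functional groups, columns are the 12 samples in 6 conditions, and colour gives log2 CPM minus the gene's mean over all samples, with the scale ending at -1 and 1. The C1 columns hold the highest condition mean of 35 genes and the 0.05 μM columns the lowest of 24.

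BRCA1 and its partners held the largest share of calls among the functional groups of more than 2 genes. Of 5 genes, 2, 4, 4 and 2 fell at the 4 doses in rising order, and 4 fell in treated against untreated samples. BRCA1 (ENSG00000012048, GRCh37 chr17:41196312-41322262, minus strand), the ubiquitin ligase that promotes end trimming, read 50.6 and 49.0 CPM in C1 and 35.6 and 35.3 CPM in C2. In order of rising dose the treated pairs read 24.7 and 25.9, 23.8 and 23.5, 22.7 and 19.7, and 25.8 and 23.2 CPM. All 8 treated samples were below both C2 samples, which were in turn below both C1 samples. Its log2 fold change against C2 was -0.49 ± 0.13 (standard error, here and below) at 0.0005 μM (adjusted p = 0.0789), and it fell by 0.58 ± 0.13 at 0.005 μM (adjusted p = 0.0332), 0.74 ± 0.13 at 0.05 μM (adjusted p = 0.00638) and 0.53 ± 0.13 at 0.5 μM (adjusted p = 0.0355) on the log2 scale. At 0.05 μM the fitted level was 59.8% of C2. The calls at 0.005, 0.05 and 0.5 μM were kept in 14, 21 and 14 of 23 alternatives.

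BRIP1 (ENSG00000136492, GRCh37 chr17:59756500-59940920, minus strand), the helicase that binds the BRCT repeats of BRCA1, was 1 of 2 genes called at all 4 doses. It read 45.2 and 44.7 CPM in C1 and 35.2 and 37.7 CPM in C2. From the lowest dose to the highest, treated pairs read 21.4 and 21.9, 21.6 and 20.1, 17.1 and 17.3, and 21.6 and 21.6 CPM. The highest treated sample lay below the lowest untreated one, and the 0.05 μM pair lay below the other 6 treated samples. BRIP1 fell by 0.75 ± 0.12, 0.81 ± 0.12, 1.09 ± 0.12 and 0.76 ± 0.12 on the log2 scale in order of rising dose, with adjusted p = 0.00757, 0.00485, 0.000528 and 0.00575. Its call at 0.05 μM was kept under all 23 alternative settings, and those at 0.0005, 0.005 and 0.5 μM under 19, 20 and 21.

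BRCA2 (GRCh37 chr13:32889223-32974405, plus strand), which acts after BRCA1 on the trimmed end, read 52.1 and 57.1 CPM in C1, 45.9 and 45.6 CPM in C2 and 26.4 to 35.1 CPM (median 28.5) in the 8 treated samples. Its groups did not overlap, and the highest treated pair, 34.1 and 35.1 CPM, was that of 0.5 μM. BRCA2 fell by 0.72 ± 0.13 at 0.0005 μM (adjusted p = 0.0122), by 0.62 ± 0.13 at 0.005 μM (adjusted p = 0.0249) and by 0.74 ± 0.13 at 0.05 μM (adjusted p = 0.0058), while at 0.5 μM its log2 fold change was -0.40 ± 0.13 (adjusted p = 0.0872). BARD1 (GRCh37 chr2:215590370-215674407, minus strand), the partner without which BRCA1 is unstable, read 32.8 and 35.8 CPM in C1, 23.3 and 24.4 CPM in C2 and 15.1 to 18.9 CPM (median 16.8) after treatment. Again no treated sample reached an untreated one. It fell by 0.60 ± 0.13 at 0.005 μM (adjusted p = 0.0261) and by 0.64 ± 0.13 at 0.05 μM (adjusted p = 0.0113), calls kept in 14 and 19 of 23 alternatives. PALB2, which joins BRCA1 to BRCA2, read 17.8 to 21.7 CPM untreated and 15.2 to 18.9 CPM treated, with overlapping groups and a log2 fold change of -0.22 ± 0.09 in treated against untreated samples (adjusted p = 0.0856).

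**Figure D2:**
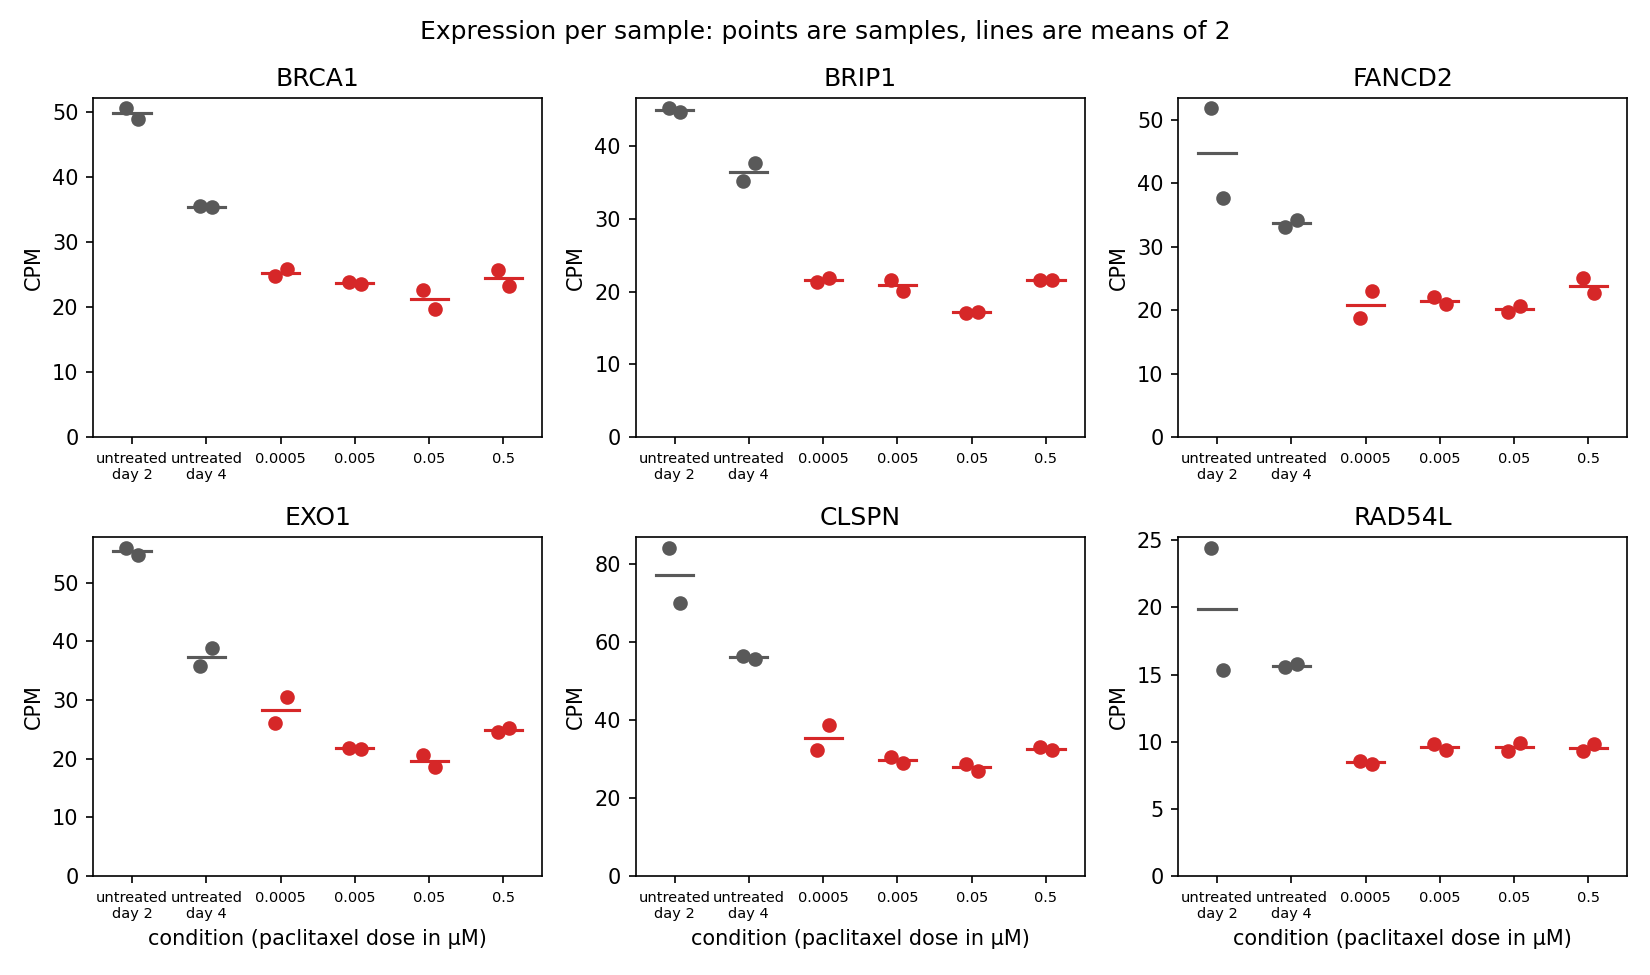
CPM of 6 genes in each sample (points) and the mean of 2 samples (lines) by condition, with untreated samples in grey and Paclitaxel doses in μM in red. For all 6 genes the 8 treated samples lie below the 4 untreated ones, as for BRIP1 with treated samples at 17.1 to 21.9 CPM and untreated samples at 35.2 to 45.2 CPM.

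A further group assists the pairing and exchange of strands. Of its 7 genes, 1, 0, 1 and 1 fell at the 4 doses in rising order, each time RAD54L, and all 7 fell in treated against untreated samples. RAD54L (GRCh37 chr1:46712133-46744152, plus strand), a motor that helps the broken end search for and invade the sister chromatid, read 24.4 and 15.4 CPM in C1 and 15.6 and 15.8 CPM in C2. Its treated pairs read 8.59 and 8.35, 9.80 and 9.42, 9.32 and 9.94, and 9.32 and 9.80 CPM in order of rising dose. C1 replicate 1 stood above the other untreated samples, which were alike, and all treated samples were lower than any of them. RAD54L fell by 0.89 ± 0.19 at 0.0005 μM (adjusted p = 0.03), by 0.70 ± 0.19 at 0.05 μM (adjusted p = 0.0399) and by 0.71 ± 0.19 at 0.5 μM (adjusted p = 0.0457), and had -0.70 ± 0.19 at 0.005 μM (adjusted p = 0.0657). The 3 calls were kept in 14, 12 and 12 of 23 alternatives. Of its exon bases, 19.9% are overlapped by LRRC41 on the opposite strand, and the strand setting of the counting is not given in the sources used here.

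RAD51AP1, which stimulates strand pairing, read 41.2 and 70.2 CPM in C1, 32.3 and 36.98 CPM in C2 and 17.5 to 30.8 CPM (median 22.2) in treated samples. The treated samples were all lower than the untreated, and the C1 replicates differed widely. It fell by 0.96 ± 0.17 on the log2 scale in treated against untreated samples (adjusted p = 0.000808), while at 0.05 μM the value was -0.76 ± 0.22 (adjusted p = 0.0561). In that same comparison RAD51D fell by 0.57 ± 0.11, RAD51C by 0.54 ± 0.14, XRCC2 by 0.53 ± 0.14, XRCC3 by 0.43 ± 0.12 and RAD54B by 0.42 ± 0.13, with adjusted p from 0.0015 (RAD51D) to 0.0236 (RAD54B). None of these 5 was called against C2 at a dose by edgeR, where RAD51C had log2 fold changes of -0.14, -0.24, -0.46 and -0.18 and XRCC2 -0.50, -0.22, -0.34 and 0.03 in order of rising dose. From day 2 to day 4 without the drug RAD51C had -0.52 ± 0.19 and XRCC2 -0.53 ± 0.16, each larger in size than any of its values against C2. RAD51C, RAD51D, XRCC2 and XRCC3 are related proteins that form complexes with each other, and RAD54B is the relative of RAD54L. RAD51D and XRCC3 had groups that did not overlap, whereas RAD51C, XRCC2 and RAD54B had treated samples within the untreated range. The XRCC3 values are uncertain, because KLC1 covers 76.7% of its exon bases on the other strand, and so are those of RAD54B, 66% of whose exon bases are shared with FSBP.

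The Fanconi core complex, the ligase that attaches ubiquitin to FANCD2 and FANCI, had 1 call at single doses. Of its 8 genes, 0, 0, 1 and 0 fell at the 4 doses in rising order by edgeR, with 3 of 8 at an unadjusted p under 0.05 at each dose (17%, 18.7%, 23.7% and 22.9% of all tested genes in either direction), and 6 of 8 fell in treated against untreated samples. FANCC (GRCh37 chr9:97861336-98189078, minus strand), a scaffold subunit, read 23.9 and 20.8 CPM in C1, 19.7 and 16.8 CPM in C2 and 11.8 to 14.0 CPM (median 13.2) treated, without overlap. It fell by 0.62 ± 0.14 at 0.05 μM (adjusted p = 0.0214), with -0.40 to -0.50 on the log2 scale at the other doses. FANCA and FANCG, which bind each other in the complex, fell in treated against untreated samples by 0.79 ± 0.14 (adjusted p = 0.000714) and by 0.72 ± 0.11 (adjusted p = 0.000219). FANCA read 28.6 to 51.5 CPM untreated and 16.0 to 23.4 CPM treated, and FANCG 33.3 to 49.7 CPM and 22.9 to 28.5 CPM, so that neither overlapped. ZNF276 covers 19.6% of the exon bases of FANCA on the other strand, so that the FANCA values are uncertain as well.

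FANCB, FANCL and FANCM fell in the same comparison by 0.46 ± 0.13, 0.39 ± 0.12 and 0.33 ± 0.10, with adjusted p = 0.0182, 0.027 and 0.0248, and the treated and untreated samples of all 3 overlapped. Against C2 none was called at a dose by edgeR, with log2 fold changes of -0.25 to -0.09 for FANCB, -0.36 to 0.02 for FANCL and -0.30 to -0.03 for FANCM, while from day 2 to day 4 without the drug they had -0.55, -0.33 and -0.25. FANCL is the catalytic ubiquitin ligase subunit and FANCM the translocase that anchors the complex to DNA. FANCE and FANCF, the adaptor subunits, read 15.5 to 21.4 CPM and 2.704 to 3.64 CPM treated, and 17.6 to 26.0 CPM and 2.77 to 4.09 CPM untreated. Their log2 fold changes were -0.21 ± 0.12 (adjusted p = 0.194) and -0.09 ± 0.12 (adjusted p = 0.646), and FANCE had the largest positive value of the 39 genes against C2, 0.15 ± 0.16 at 0.05 μM (adjusted p = 0.648).

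Both substrates of the core complex fell at 0.05 μM. FANCD2 (GRCh37 chr3:10068054-10143616, plus strand) read 51.8 and 37.7 CPM in C1 and 33.1 and 34.2 CPM in C2. With the drug it read 18.7 and 23.0, 22.1 and 20.9, 19.7 and 20.6, and 25.02 and 22.7 CPM in order of rising dose. FANCI (GRCh37 chr15:89787176-89860492, plus strand) read 133 and 140.2 CPM in C1, 104.9 and 105 CPM in C2 and 61.5 to 84.5 CPM (median 73.1) treated. In both genes every treated sample was below every untreated one, and C1 replicate 1 was the highest FANCD2 sample. FANCD2 fell by 0.74 ± 0.17 at 0.05 μM (adjusted p = 0.0203), and was at adjusted p = 0.0531, 0.0589 and 0.102 at 0.0005, 0.005 and 0.5 μM. FANCI fell by 0.69 ± 0.13 at 0.05 μM (adjusted p = 0.01), with adjusted p = 0.105, 0.0555 and 0.131 at the other doses in the same order.

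Among the 8 genes of end resection and helicases, 1, 2, 4 and 1 fell at the 4 doses in rising order, and 6 fell in treated against untreated samples. EXO1 (GRCh37 chr1:242011269-242058450, plus strand), an exonuclease that extends the trimmed end, read 55.9 and 54.8 CPM in C1 and 35.9 and 38.8 CPM in C2. By rising dose its treated pairs read 26.0 and 30.6, 21.8 and 21.8, 20.7 and 18.7, and 24.5 and 25.2 CPM. All were below C2, and the lowest dose held the highest treated samples. The log2 fold change was -0.40 ± 0.13 at 0.0005 μM (adjusted p = 0.153), and EXO1 fell by 0.78 ± 0.13 at 0.005 μM (adjusted p = 0.00984), by 0.93 ± 0.14 at 0.05 μM (adjusted p = 0.0023) and by 0.59 ± 0.13 at 0.5 μM (adjusted p = 0.0262). The call at 0.05 μM was kept under all 23 alternatives, and those at 0.005 and 0.5 μM under 19 and 17.

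DNA2 (GRCh37 chr10:70173821-70231878, minus strand), the other nuclease of long-range trimming, read 28.1 and 36 CPM in C1, 22.9 and 23.9 CPM in C2 and 13.0 to 17.5 CPM (median 14.2) treated. It fell by 0.74 ± 0.15 at 0.0005 μM (adjusted p = 0.0232), by 0.72 ± 0.15 at 0.005 μM (adjusted p = 0.0239) and by 0.84 ± 0.15 at 0.05 μM (adjusted p = 0.00651), with -0.45 ± 0.15 at 0.5 μM (adjusted p = 0.0985). BLM (GRCh37 chr15:91260577-91359396, plus strand), the helicase that works with DNA2 and resolves joined molecules, read 24.4 to 39.5 CPM untreated and 14.2 to 19.3 CPM treated. Neither gene had overlapping groups. BLM fell by 0.74 ± 0.16 at 0.05 μM (adjusted p = 0.0156).

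MRE11, RAD50 and NBN form the complex that senses a broken end and starts its trimming. MRE11 (GRCh37 chr11:94148736-94227051, minus strand) read 34.9 to 51.4 CPM untreated and 23.3 to 31.0 CPM treated, without overlap, and fell by 0.59 ± 0.16 at 0.05 μM (adjusted p = 0.0436), a call kept in 10 of 23 alternatives. NBN fell by 0.30 ± 0.09 in treated against untreated samples (adjusted p = 0.027), and its highest treated sample was level with the lowest untreated sample at 82.2 CPM. Against C2 it had -0.16 to -0.07 and was not called at a dose by edgeR, while from day 2 to day 4 without the drug it had -0.33 ± 0.13. RAD50 read 48.1 to 53.6 CPM untreated and 42.4 to 48.0 CPM treated, with all treated samples below all untreated, yet its log2 fold change of -0.16 ± 0.08 was not called (adjusted p = 0.142). A readthrough identifier that the table does not list shares 76.9% of its exon bases. RBBP8, which activates MRE11, read 90.5 to 140.9 CPM untreated and 61.5 to 82.8 CPM treated and fell by 0.54 ± 0.12 in that comparison (adjusted p = 0.00343). WRN, a helicase related to BLM, had overlapping groups and -0.23 ± 0.10 (adjusted p = 0.0886).

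Of the 6 genes of the replication checkpoint, 1, 1, 4 and 1 fell at the 4 doses in rising order, and 5 fell in treated against untreated samples. CLSPN (GRCh37 chr1:36185819-36235579, minus strand), the adaptor that brings CHEK1 to ATR at stalled forks, was the other gene called at all 4 doses. It read 83.9 and 70.0 CPM in C1 and 56.4 and 55.5 CPM in C2. With rising dose the treated pairs read 32.3 and 38.7, 30.5 and 29.1, 28.8 and 26.9, and 33.0 and 32.2 CPM. All treated samples were below C2, and the 0.05 μM pair was the lowest. CLSPN fell by 0.66 ± 0.14, 0.91 ± 0.14, 1.01 ± 0.14 and 0.78 ± 0.14 on the log2 scale in order of rising dose, with adjusted p = 0.0316, 0.00543, 0.002 and 0.00961. The fitted level at 0.05 μM was 49.8% of C2, a call kept in all 23 alternatives, whereas the calls at 0.0005, 0.005 and 0.5 μM were kept in 13, 20 and 20 of 23.

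CHEK1 (GRCh37 chr11:125495058-125546150, plus strand), the kinase that CLSPN presents to ATR, read 71.5 and 80.0 CPM in C1, 58.4 and 60.5 CPM in C2 and 38 to 54.6 CPM (median 45.9) treated. It fell by 0.52 ± 0.14 at 0.05 μM (adjusted p = 0.0459), a call kept in 9 of 23 alternatives. TOPBP1 (GRCh37 chr3:133317019-133381224, minus strand), the activator of ATR, read 97.8 to 125.2 CPM untreated and 61.8 to 82.5 CPM treated and fell by 0.61 ± 0.13 at 0.05 μM (adjusted p = 0.0134). In both genes all treated samples were below all untreated ones. ATM (GRCh37 chr11:108093771-108239829, plus strand), the kinase that answers broken ends, read 107 and 134.9 CPM in C1, 118 and 134 CPM in C2 and 68.8 to 119.3 CPM (median 96.7) treated. Its groups overlapped, since the first of the 0.005 μM samples, at 119.3 and 106 CPM, lay in the untreated range and the second just below it, and the 0.05 μM pair, at 68.8 and 80.2 CPM, was the lowest. It fell by 0.76 ± 0.16 at 0.05 μM (adjusted p = 0.0146). ATR fell by 0.27 ± 0.09 in treated against untreated samples (adjusted p = 0.0279), and its partner ATRIP had -0.36 ± 0.14 (adjusted p = 0.071), with the 0.05 and 0.5 μM samples of ATRIP at 9.58 to 10.3 CPM beside 9.76 and 10.2 CPM in C2. TREX1 shares 26.7% of the exon bases of ATRIP, so that its values are uncertain.

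POLQ (GRCh37 chr3:121150278-121264835, minus strand), the polymerase of microhomology-mediated end joining, is a backup to recombination. It read 19.4 and 19.4 CPM in C1, 16.9 and 19.5 CPM in C2 and 10.5 to 14.2 CPM (median 12.4) treated. The groups did not overlap, and the 0.5 μM pair was the highest of the treated samples. POLQ fell by 0.72 ± 0.14 at 0.0005 μM (adjusted p = 0.015), by 0.54 ± 0.13 at 0.005 μM (adjusted p = 0.0499) and by 0.56 ± 0.13 at 0.05 μM (adjusted p = 0.0252), of which the call at 0.005 μM was kept in 8 of 23 alternatives. MUS81 and EME1, subunits of a nuclease that cuts joined molecules, were not called by edgeR in any comparison, and DESeq2 called EME1 in treated against untreated samples (adjusted p = 0.0314). In treated against untreated samples MUS81 had -0.13 ± 0.09 (adjusted p = 0.311) and EME1 -0.33 ± 0.12 (adjusted p = 0.0555), both with overlapping groups.

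**Figure D3:**
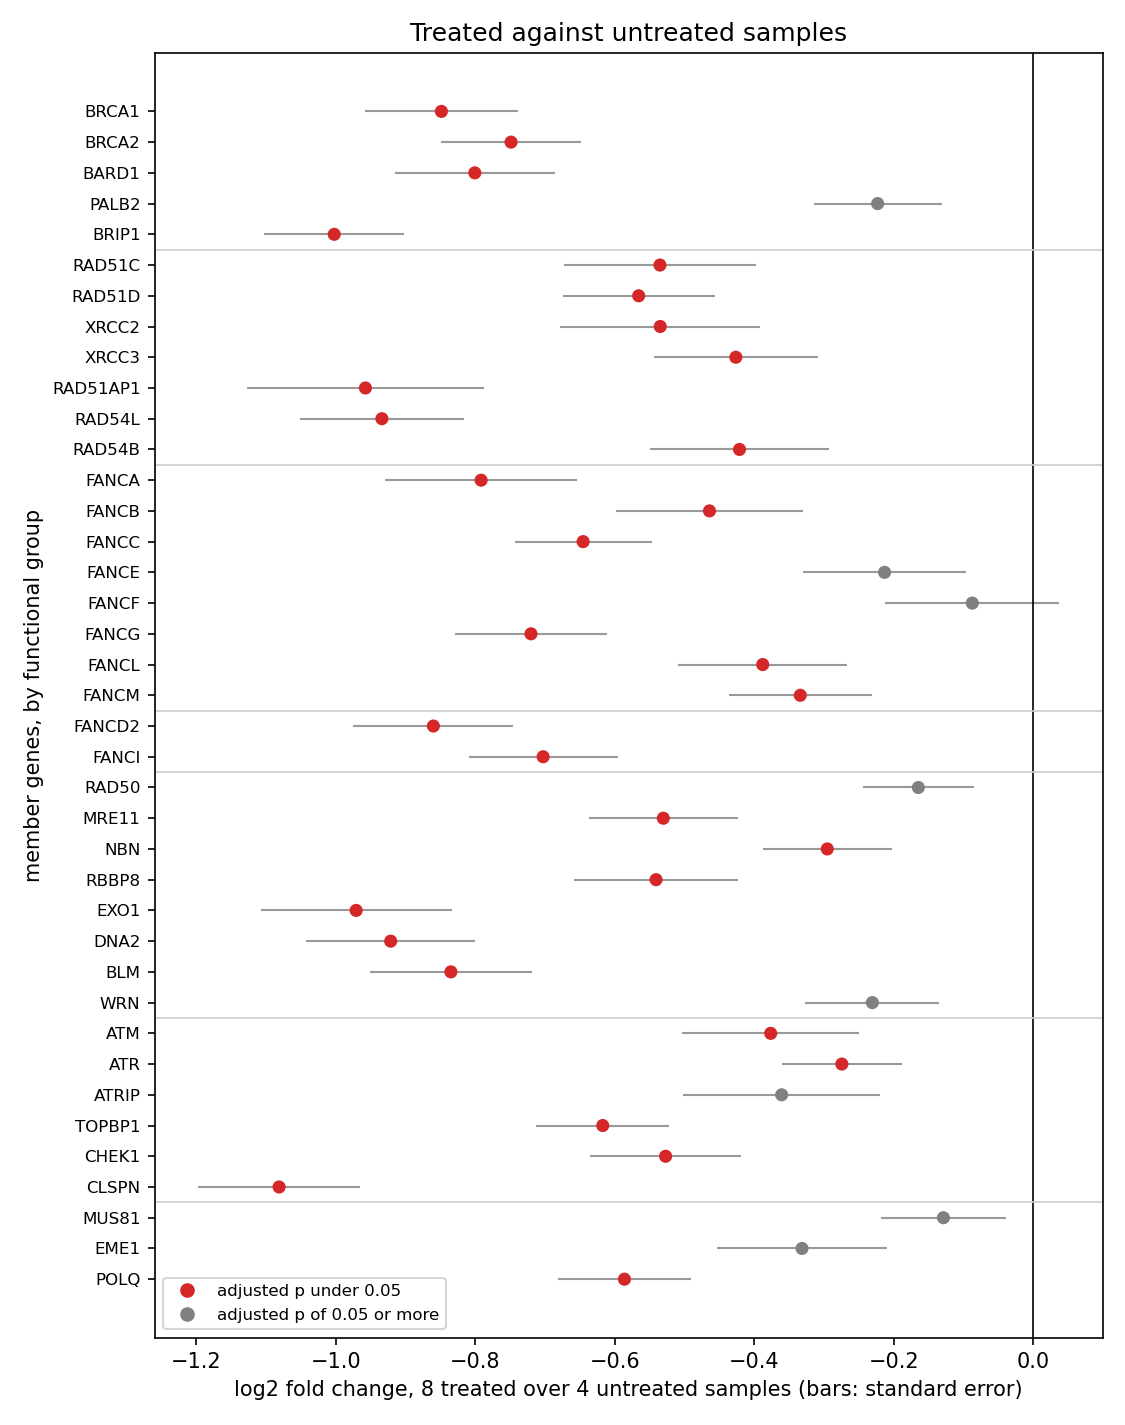
The log2 fold change of the 8 treated over the 4 untreated samples (points) with its standard error (bars) for the 39 genes by functional group, red where the adjusted p was under 0.05. All 39 points lie below 0, and 31 are red, from CLSPN at -1.08 to ATR at -0.27.

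Across doses the 39 genes did not follow a rising or falling line. A slope on log10 dose within the 8 treated samples called 0 of the 39 by edgeR and 0 by DESeq2, with 5 at an unadjusted p under 0.05 (18.3% of all tested genes), while 3.06% of all tested genes were called. From C2 to 0.0005 μM the mean of all 39 genes went down (51.3% of all tested genes), from 0.0005 to 0.005 μM that of 21 (51.3%), from 0.005 to 0.05 μM that of 31 (55.4%), and from 0.05 to 0.5 μM that of 5 (42.9%). Of the 39 genes, 7, 6, 24 and 2 had their lowest condition mean at the 4 doses in rising order, where 16.4%, 10.5%, 18% and 14% of all tested genes did. Between 0.05 and 0.5 μM, 34 of the 39 genes were higher at 0.5 μM (56.7% of all tested genes were), with a median difference of 0.21 on the log2 scale against 0.05 for all genes. In 25 of the 39, both 0.5 μM samples were above both 0.05 μM samples (19.3% of all genes). By edgeR 0 of the 39 and 0 of all tested genes were called in that comparison, with 8 of the 39 at an unadjusted p under 0.05 (2.57% of all tested genes in either direction). Both 0.5 μM samples were above both 0.0005 μM samples in 17 of the 39 (28.8% of all genes) and below them in 5 (25.9%). Of the 0.5 μM over 0.05 μM differences, the largest was that of RAD51AP1, 0.49 ± 0.22 on the log2 scale (adjusted p = 0.893), and DNA2 had 0.39 ± 0.15 and BRCA2 0.34 ± 0.13 at the same adjusted p.

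Without the drug, C2 was compared with C1 to see what 2 further days of culture did. Of the 39 genes 35 had a negative log2 fold change (52.7% of all tested genes), with a median of -0.33 against -0.02 for all tested genes. By edgeR 0 of the 39 were called, while 0.00396% of all tested genes were called lower and 0.321% higher, with 19 of the 39 at an unadjusted p under 0.05 (10% of all tested genes in either direction), and DESeq2 called 3 lower (0.329% of all genes). In 27 of the 39 both C2 samples were below both C1 samples, a pattern of 15.3% of all tested genes. RAD51AP1 had the most negative value, -0.68 ± 0.22 (adjusted p = 0.345), followed by EXO1 at -0.57 ± 0.13 (adjusted p = 0.154). Without C1 replicate 1, which leaves 1 sample of C1 and a spread taken from the other conditions, 34 of the 39 had a negative log2 fold change. In 30 of the 39 genes the mean of C1 was above that of C2 and the mean of C2 above that of every dose, an order found in 14% of all tested genes.

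The wider pathway was followed with 74 further genes of recombination, crosslink repair and checkpoint signalling. Of these, 2, 3, 6 and 3 fell at the 4 doses in rising order, 1 rose at the highest dose, and in treated against untreated samples 33 fell and 1 rose. Their median log2 fold change was -0.19, -0.19, -0.24 and -0.11 in order of rising dose. The gene that rose at 0.5 μM, named here after its values were seen, was DBF4, the activating subunit of the kinase CDC7, with 0.62 ± 0.16 (adjusted p = 0.0401), and it had 0.22 ± 0.16, 0.11 ± 0.16 and 0.37 ± 0.16 at the lower doses (adjusted p = 0.498, 0.745 and 0.184). The gene that rose in treated against untreated samples, likewise named afterwards, was the helicase HELQ, by 0.36 ± 0.10 (adjusted p = 0.0193). FIGNL1, an ATPase of recombination, fell at all 4 doses, by 0.70 ± 0.13, 0.65 ± 0.13, 0.90 ± 0.14 and 0.53 ± 0.13 (adjusted p = 0.017, 0.0232, 0.00264 and 0.0394). WEE1, the kinase that restrains entry into mitosis, fell at the 3 higher doses by 0.91 ± 0.19, 0.86 ± 0.19 and 0.94 ± 0.19 (adjusted p = 0.0249, 0.0187 and 0.0163).

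RMI1 and RMI2, partners of BLM, fell in treated against untreated samples by 0.81 ± 0.11 (adjusted p = 7.9e-05) and by 0.97 ± 0.15 (adjusted p = 0.000266). RMI1 was called at 0.005 and 0.05 μM and RMI2 at 0.5 μM. USP1, which removes ubiquitin from FANCD2, and the helicase MCM8 fell at 0.05 μM by 0.49 ± 0.12 (adjusted p = 0.0296) and by 0.59 ± 0.14 (adjusted p = 0.0218). PSMC3IP, a cofactor of strand exchange, fell at 0.05 μM by 0.70 ± 0.17 (adjusted p = 0.0231), and ETAA1, an activator of ATR, fell at 0.0005 μM by 0.73 ± 0.16 (adjusted p = 0.0391). UBE2T, the ubiquitin conjugase that serves FANCL, was called at 0 of 4 doses and fell by 0.52 ± 0.16 in treated against untreated samples (adjusted p = 0.0222).

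The 10 genes of nonhomologous end joining, the pathway that seals broken ends without a template, had medians of 0.00, 0.00, -0.04 and 0.10 in order of rising dose. None of the 10 was called at a dose by edgeR, with 0, 2, 2 and 2 of them at an unadjusted p under 0.05, and in treated against untreated samples 2 fell and 1 rose. Of 20 p53 target genes, 0 were called lower and 2, 1, 2 and 1 higher at the 4 doses, with medians of 0.12, 0.00, -0.06 and -0.09.

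Markers of cycling cells moved in the same samples. All 41 matched S phase genes fell in treated against untreated samples, with a median of -0.85, and 3, 16, 20 and 11 of them fell at the 4 doses, with medians of -0.52, -0.71, -0.60 and -0.59. Their summed level was 2639 to 4206 CPM in untreated and 1659 to 2025 CPM in treated samples, which did not overlap. The 36 genes of G2 and M phase had medians of -0.16, -0.31, -0.11 and 0.25 at the 4 doses, with 1, 0, 2 and 1 called lower and 0, 0, 0 and 4 higher. In treated against untreated samples 14 of the 36 fell and 0 rose by edgeR, with a median of -0.36, and 14 rose with dose in the slope among treated samples, where 0 of the 39 recombination and Fanconi genes and 0 of the S phase genes were called. From day 2 to day 4 without the drug the median was -0.51 for the S phase genes and -0.54 for the G2 and M phase genes, with 0 called in either list by edgeR and 32 and 33 of them at an unadjusted p under 0.05. The part of cell cycle state in the values of the 39 genes was not tested.

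**Figure D4:**
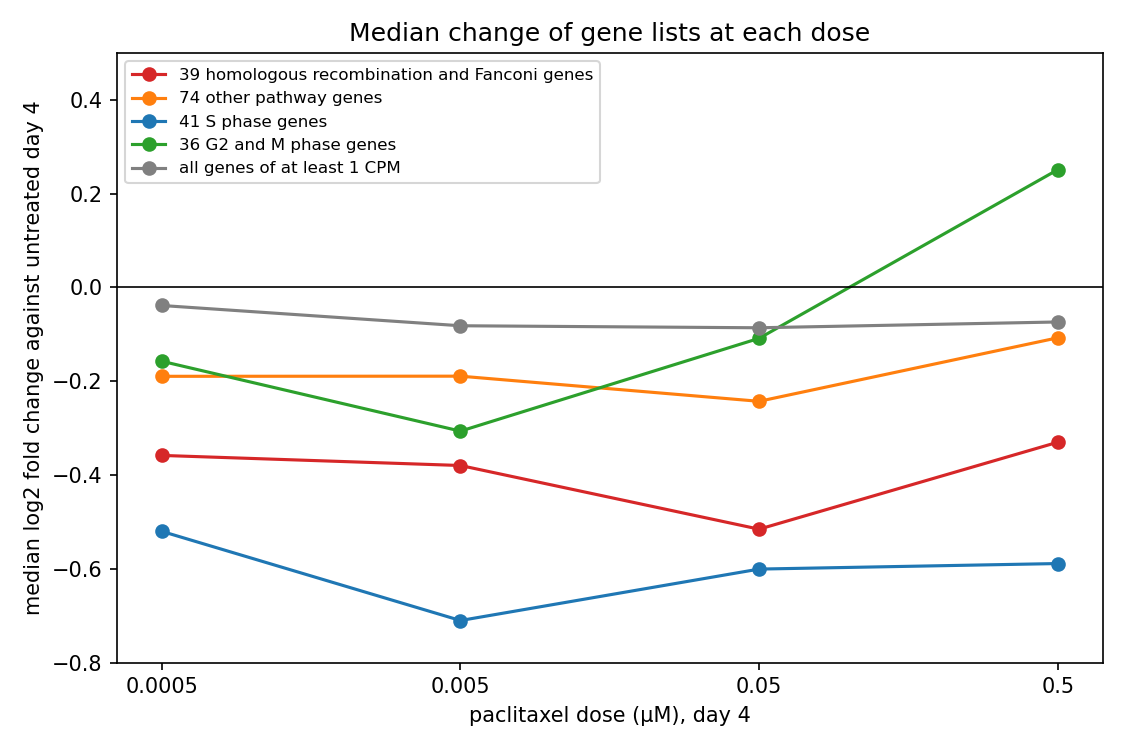
Median log2 fold change against C2 by Paclitaxel dose (μM, spaced evenly by log dose) for the 39 genes and 4 other sets of genes, each point the median over genes. The 39 genes lie between the S phase genes and the 74 other pathway genes at every dose, from -0.52 at 0.05 μM to -0.33 at 0.5 μM, while the G2 and M phase genes end at 0.25.

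Levels can be compared between genes only per length of transcript, here as CPM per kilobase of the MANE transcript, the reference isoform of each gene. In C2, RBBP8 was the highest of the 39 at 27.7 ± 0.121 CPM per kilobase (SD, n = 2), followed by FANCI at 22.2 ± 0.0149, NBN at 18.1 ± 0.482 and TOPBP1 at 17.4 ± 0.621. NBN and TOPBP1 differed by about the spread of their replicates. BRCA1 was in place 23 at 5.00 ± 0.0229 CPM per kilobase and BRCA2 in place 29 at 3.83 ± 0.0166. FANCF, the gene with the smallest change in treated against untreated samples, was among the lowest at 1.14 ± 0.148, and RAD51D was the lowest at 0.650 ± 0.0521.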

How the data were processed

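RNA of 12 samples was sequenced as paired-end reads of total RNA. The authors removed adapters and low quality bases with Trimmomatic 0.39, checked reads with FastQC 0.11.9, aligned them to GRCh37 with STAR 2.7.5, and counted the uniquely placed reads over exons with Rsubread. The deposited values are whole-number counts per gene, neither normalized nor pooled, and the 12 files of single samples held the same values as the series table. Reads that map to more than 1 place, as from pseudogene copies, are missing from these counts, and reads of overlapping genes can be counted wrongly.

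The counts were analysed in R 4.3.3 with edgeR 4.0.16, with TMM scaling, filterByExpr by the 6 conditions, and a robust quasi-likelihood fit of 1 mean per condition over all 12 samples. The 4 doses and the untreated day 4 samples were compared in that fit. Treated against untreated samples were fitted on their own, as was a trend over log10 dose among the 8 treated ones (the slope). Tests were two-sided, with Benjamini-Hochberg adjustment over all 25249 genes, and calls needed an adjusted p under 0.05. The standard error of a log2 fold change is its size over the root of the F statistic. CPM was computed with effective library sizes after TMM, and a prior count of 2 was added for log2 CPM. The common biological coefficient of variation was 15.6%. A permutation test of 2 against 2 samples cannot go below an exact p of 0.333, so single genes were not tested that way. DESeq2 1.42.0 and further settings served as alternatives. The procedure was tested on simulated data.

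Replicate numbers could pair samples across conditions, so deviations from condition means were correlated between equally numbered samples. The correlations ran from -0.58 to 0.57 over 15 pairs of conditions, and the numbers were not taken as pairs. No 2 replicates agreed within counting noise, the lowest chi-square per degree of freedom being 7.07.

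Gene symbols were matched through a table of gene names, and coordinates come from GENCODE 44 lifted to GRCh37. UHRF1 of the S phase list and PECAM1 of the endothelial list had no match. The members and lists were chosen with earlier results of these data known, and the lists were compiled by hand. Fold change, standard error and adjusted p are given for genes with an adjusted p under 0.05 at 1 dose or more, in the day comparison or in the slope. They are given at the doses of the calls and, for some genes, at other doses. Of the 74 other pathway genes, up to 8 such genes by smallest p in treated against untreated samples are named, with UBE2T and USP1 added. The rule also named 1 gene whose own values are not reported here. Promoters are printed for up to 4 genes that hold an E2F or CHR string, by the same p.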

Additional observations from a re-analysis of the deposited data

Results flagged for a closer look

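For each of the 39 genes, the highest and lowest sample were compared with the others within the 4 untreated and within the 8 treated samples, on the log2 CPM scale, by Dixon's ratio of the gap to the range. Of 78 groups, 7 held a sample that stood apart, and chance gives about 1 in 20.

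In the untreated samples C1 replicate 1 was high in RAD54L (24.4 CPM, ratio 0.943), in XRCC3 (25.1 CPM, ratio 0.86) and in ATRIP (15.0 CPM, ratio 0.832). C1 replicate 2 was high in FANCL at 25.03 CPM, with a ratio of 0.853. C2 replicate 1 was low in POLQ at 16.9 CPM, with a ratio of 0.95. In the treated samples replicate 2 at 0.05 μM was low in RAD51C at 18.0 CPM, with a ratio of 0.648, and replicate 1 at 0.0005 μM was low in FANCB at 4.45 CPM, with a ratio of 0.568. Of these genes, RAD54L and POLQ were called at single doses against C2, and XRCC3, FANCL, RAD51C and FANCB in treated against untreated samples.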

How the results depend on the processing

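With 2 samples per condition, the number of the 39 genes called at single doses depended on the samples and settings of the fit. None was called higher at a dose under any alternative, and the number with a negative log2 fold change, 39, 39, 37 and 36 at the 4 doses, was 38, 38, 33 and 30 with offsets for GC content and exon length and 39, 37, 35 and 31 at a mean of at least 1 CPM. The 17 named genes had 53 calls, at single doses or in treated against untreated samples. Recomputed under 1185 alternatives in all, 977 were kept, 208 were lost and 0 reversed. In treated against untreated samples a call was lost in 7 of 21 alternatives for ATM and in 1 each for CHEK1 and MRE11. All other lost calls were at single doses. A call was kept in 13 to 19 of 23 alternatives at 0.0005 μM, 8 to 20 at 0.005 μM, 9 to 23 at 0.05 μM and 12 to 21 at 0.5 μM.

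The main counts at 0.0005, 0.005, 0.05 and 0.5 μM were 6, 8, 17 and 5. With both untreated days as the control they were 20, 25, 26 and 17, in fits of the 4 samples alone 16, 19, 20 and 12, without the day 2 samples (an alternative chosen after seeing the data) 19, 20, 25 and 19, and with DESeq2 11, 15, 20 and 9. The share of all genes called lower, 0.479%, 0.776%, 3.23% and 1.96% as reported above, moved too, to 2.49% to 6.95% with both days, 5.24% to 5.75% with the 4 samples alone, 4.56% to 10.8% without day 2 and 1.6% to 5.11% with DESeq2. Offsets for GC content and exon length gave 10, 12, 19 and 10, where 1.49%, 1.87%, 3.91% and 3.86% of all genes were called lower. A mean of at least 1 CPM, also chosen after seeing the data, gave 4 at 0.005 μM (0.595% of all genes). From day 2 to day 4, where the main count was 0, the fit without a filter beyond 1 count gave 1, the offsets 2 and DESeq2 3. In those fits 0.313%, 0.107% and 0.329% of all genes were called lower. In treated against untreated samples the untreated day 4 samples alone as the control gave 18 in place of 31 (4.1% of all genes in place of 11.3%). The slope gave 0 as reported. With the offsets 2 genes were called higher in it (2.15% of all genes), and at a mean of at least 1 CPM 1 was (2.19%). The cause of these differences was not tested. The fit without a filter moved the median of all tested genes in treated against untreated samples to 0.27.

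Leaving out 1 sample gave counts of 0 to 19, 0 to 21, 3 to 25 and 0 to 19 at the 4 doses, while 0.0149% to 4.29%, 0.0186% to 6.4%, 0.208% to 9.16% and 0.0756% to 10.2% of all genes were called lower in the same fits. In treated against untreated samples it gave 25 to 33, while 6.89% to 12.9% of all genes were called lower, and in the slope 0 to 0. Without C1 replicate 1 the dose counts were 19, 21, 25 and 19, and without C1 replicate 2 they were 19, 20 and 19 at 0.0005, 0.005 and 0.5 μM. Without C2 replicate 1 they were 0, 0, 3 and 0, and without C2 replicate 2 they were 0, 2, 7 and 2. Leaving out replicate 1 or 2 of the dose tested gave 0 and 0 at 0.0005 μM, 0 and 0 at 0.005 μM, 7 and 4 at 0.05 μM, and 1 and 0 at 0.5 μM. Leaving out a sample of another dose also moved some counts, at 0.0005 μM to 3 (either 0.005 μM sample), at 0.005 μM to 5 and 4 (0.0005 μM replicates 1 and 2) and to 5 (either 0.5 μM sample), and at 0.5 μM to 3 (either 0.0005 μM sample) and to 2 (either 0.005 μM sample). Between days, 12 were called without C1 replicate 1 and 7 without C1 replicate 2.

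With the replicate number as a block the counts were 6, 7, 18 and 5 at the 4 doses. There 0.63%, 0.891%, 3.47% and 2.67% of all genes were called lower. The block gave 0 between days, 31 in treated against untreated samples (11.2% of all genes) and 0 in the slope. It moved no count by over 1.5 times. The samples share only a number. The lowest count of any of the 39 genes in a sample was 93, in FANCF, and each condition had 2 samples.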
